A study of Homo sapiens with 2 samples.

Results

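The genes described here are 10 genes of the Hippo pathway, taken by name from the 58735 genes listed in the deposited tables. They are the transcriptional effectors YAP1 and WWTR1 (TAZ), their DNA-binding partners TEAD1 and TEAD4, the kinase LATS2, the junctional regulators AMOTL2 and AJUBA, and the YAP target genes CTGF (CCN2), CYR61 (CCN1) and ANKRD1. The samples were 1 library called MAEL WT here, from untreated PLC8024 cells of wildtype genotype, and 1 library called MAEL KO, from cells of the same line with MAEL targeted by sgRNA and Cas9. PLC8024, which the methods also call PLC/PRF/5 and the labels Alexander cells, is an epithelial line from a human liver cancer. By the methods, knockout cells were sorted for a plasmid marker and grown as single clones. Effects of the clone and of the genotype cannot be told apart, and whether the wildtype cells were cloned is not stated. MAEL itself had 1 count in MAEL WT and 0 in MAEL KO. Both are under 3 counts, the floor used here, so the counts of MAEL could not check the labels. The methods state that the knockout was examined with an indel kit and the loss of MAEL by Western blot.

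In the Hippo pathway the kinases MST1 and MST2 (STK4 and STK3) activate LATS1 and LATS2, which phosphorylate YAP and TAZ. Phosphorylated YAP and TAZ are held in the cytoplasm or degraded. Unphosphorylated YAP and TAZ enter the nucleus, bind TEAD factors and switch on genes such as CTGF, CYR61 and ANKRD1. The pathway reads cell contact, polarity and tension of the cytoskeleton, and in liver it limits organ size and tumour growth. Its activity is set largely by protein phosphorylation, which RNA sequencing does not measure.

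Total counts were 19904136 in MAEL WT and 20833332 in MAEL KO, and 3 counts corresponded to 0.151 and 0.144 CPM. All 10 genes had at least 10 counts in at least 1 library, as did 17887 of all genes, and 9 of them had at least 100 counts in both libraries. Levels are given as the deposited FPKM, which divides counts by gene length and by a scaled library size, with an exact 95% Poisson interval. Differences are log2 ratios, positive where MAEL KO was higher, from counts normalized by TMM with 1 added, with an exact 95% Clopper-Pearson interval. Both kinds of interval cover counting error only. With 1 library per condition there was no replicate error and no test, so "lower" and "higher" compare 2 libraries. Over all tested genes the median log2 ratio was -0.04, and it was -0.31 when libraries were scaled by total counts alone. That shift of the whole scale bears on every small difference below. In bulk RNA, fewer cells with a transcript and less of it per cell cannot be told apart.

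Of the 10 genes, ANKRD1, CYR61 and AJUBA were lower in MAEL KO by more than 1 on the log2 scale and none was higher by as much. The other 7 genes differed by less than 0.4 in either direction, though WWTR1 and AMOTL2 were at -0.55 and -0.53 with total counts. Thus CTGF, CYR61 and ANKRD1, which are commonly read together as YAP targets, stood apart. Of all tested genes, 16.5% were lower by more than 1 and 10.2% were higher by more than 1, together 26.7%. At a log2 ratio of 2, ANKRD1 was lower and no member was higher, against 5.64% and 2.16% of all tested genes. Of all genes past 2, 27.7% were higher in MAEL KO, and 17.05% with total counts. The median log2 ratio of the 10 genes was -0.12. The counting interval excluded 0 for 8 of the 10 genes, as it did for 69.5% of all tested genes.

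**Figure D1:**
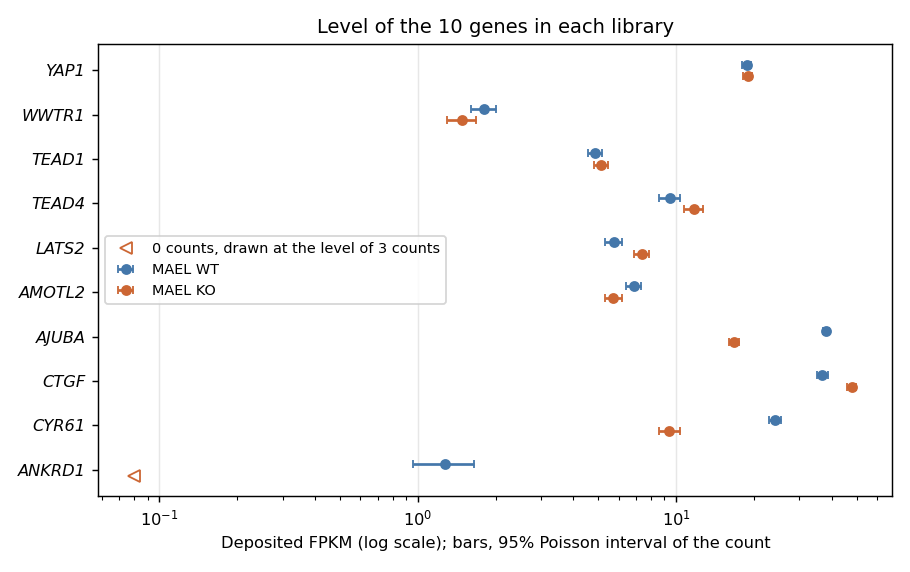
Deposited FPKM (log scale) of the 10 genes in the MAEL WT library (blue) and the MAEL KO library (orange), with exact 95% Poisson intervals of the counts; the open triangle is the level of 3 counts for ANKRD1, which had 0 counts in MAEL KO. The libraries lie far apart for AJUBA, CYR61 and ANKRD1, whereas YAP1 is at 18.7 and 18.9 FPKM.

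YAP1 and WWTR1 encode the paired co-activators at the end of the pathway. YAP1 (ENSG00000137693) spans 102110461 to 102233423 of chromosome 11 (GRCh38, plus strand), and had 2581 counts in MAEL WT and 2257 in MAEL KO, or 18.7 FPKM (18.03 to 19.5) and 18.9 FPKM (18.1 to 19.7). The log2 ratio was 0.02 (95% interval -0.07 to 0.10) and -0.26 with total counts, so its sign depended on the scaling. WWTR1 (ENSG00000018408), on chromosome 3 from 149517235 to 149736714 on the minus strand, had 331 and 236 counts, or 1.80 FPKM (1.61 to 2.003) and 1.48 FPKM (1.30 to 1.68). Its log2 ratio was -0.28 (95% interval -0.52 to -0.03), lower in MAEL KO with an interval that ended close to 0. Per length, YAP1 was the main transcript of the pair and made up 91.2% of their summed FPKM in MAEL WT and 92.7% in MAEL KO. The ratio of YAP1 to WWTR1 counts, which needs no scaling between libraries, was 7.80 and 9.56, a change of 1.23 times (exact 95% interval 1.02 to 1.47).

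The TEAD proteins carry the DNA-binding domain that YAP and TAZ lack. TEAD1 (ENSG00000187079), on chromosome 11 from 12674591 to 12944483 on the plus strand, had 1090 counts in MAEL WT and 994 in MAEL KO, or 4.85 and 5.10 FPKM. Its log2 ratio was 0.08 (95% interval -0.05 to 0.20), and it was -0.20 with total counts. TEAD4 (ENSG00000197905), on chromosome 12 from 2959330 to 3040673 on the plus strand, had 469 and 503 counts, or 9.44 and 11.7 FPKM. Its log2 ratio was 0.31 (95% interval 0.13 to 0.50) and 0.04 with total counts. All 4 TEAD genes were transcribed in both libraries. Per length, TEAD3 and TEAD2 were highest in MAEL WT, with 12.4 and 11.9 FPKM and overlapping Poisson intervals. In MAEL KO, TEAD4 and TEAD3 were highest, with 11.7 and 11.4 FPKM and again overlapping intervals. TEAD2 was the TEAD gene that differed most, with 774 and 452 counts and a log2 ratio of -0.56 (95% interval -0.74 to -0.40). Its share of the summed TEAD level was 30.8% in MAEL WT and 22.1% in MAEL KO, while that of TEAD4 was 24.45% and 32.3%. TEAD1 had the lowest share in both libraries, at 12.6% and 14.1%.

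LATS2 (ENSG00000150457) encodes a kinase that phosphorylates YAP and TAZ, and is itself a YAP target. It spans 20973032 to 21061547 of chromosome 13 (minus strand). It had 698 counts in MAEL WT and 777 in MAEL KO, or 5.72 FPKM (5.30 to 6.16) and 7.35 FPKM (6.84 to 7.88), and the intervals did not overlap. The log2 ratio was 0.36 (95% interval 0.22 to 0.51). Its paralog LATS1 had 841 and 833 counts and a log2 ratio of 0.20, and the ratio of LATS2 to LATS1 changed by 1.12 times (exact 95% interval 0.975 to 1.30), which includes no change. With total counts the log2 ratio of LATS2 was 0.09.

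AMOTL2 and AJUBA encode proteins of cell junctions that act on the pathway from opposite sides. Angiomotins such as AMOTL2 bind YAP and hold it at junctions and in the cytoplasm, and AMOTL2 is also a YAP target. AMOTL2 (ENSG00000114019), on chromosome 3 from 134355874 to 134375479 on the minus strand, had 896 counts in MAEL WT and 649 in MAEL KO, or 6.85 and 5.72 FPKM. Its log2 ratio was -0.25 (95% interval -0.40 to -0.11). The other angiomotin genes were at lower levels, AMOT with 0.839 and 0.955 FPKM and AMOTL1 with 1.02 and 1.05 FPKM, and AMOTL2 made up 78.7% and 74.0% of the family's summed level.

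AJUBA encodes a LIM-domain protein that binds and inhibits LATS kinases. AJUBA (ENSG00000129474) spans 22971174 to 22982642 of chromosome 14 (minus strand). It had 4957 counts in MAEL WT and 1893 in MAEL KO, the highest count of the 10 genes in MAEL WT. Its level was 37.9 FPKM (36.9 to 39.0) and 16.7 FPKM (16.0 to 17.5), 2.26-fold lower in MAEL KO, with a log2 ratio of -1.18 (95% interval -1.26 to -1.10). Both other genes of the family were lower as well. WTIP had 406 and 155 counts with a log2 ratio of -1.17 (95% interval -1.46 to -0.91), and LIMD1 had 3208 and 1805 counts with -0.62 (95% interval -0.70 to -0.54). The ratio of AJUBA to LIMD1 counts was 1.55 and 1.05. Summed over the 3 genes, the family stood at 50.8 FPKM in MAEL WT and 24.8 FPKM in MAEL KO.

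CTGF and CYR61 encode secreted matricellular proteins of the CCN family, which bind integrins and growth factors outside the cell. CTGF (ENSG00000118523) spans 131948176 to 131951373 of chromosome 6 (minus strand). It had 1884 counts in MAEL WT and 2117 in MAEL KO, or 36.8 FPKM (35.2 to 38.5) and 47.7 FPKM (45.7 to 49.8). Its log2 ratio was 0.38 (95% interval 0.29 to 0.47), the highest of the 10 genes, and 0.10 with total counts. CYR61 (ENSG00000142871) spans 85580761 to 85583962 of chromosome 1 (plus strand). It had 1300 counts in MAEL WT and 438 in MAEL KO, or 24.2 FPKM (22.9 to 25.6) and 9.41 FPKM (8.55 to 10.3). CYR61 was 2.56-fold lower in MAEL KO, with a log2 ratio of -1.36 (95% interval -1.52 to -1.20). The closest paralogs among the targets thus stood on opposite sides of 0. The ratio of CTGF to CYR61 counts was 1.45 in MAEL WT and 4.83 in MAEL KO, a change of 3.33 times (exact 95% interval 2.94 to 3.79) that no scaling of the libraries can alter. CTGF took 60.15% of the summed CCN level in MAEL WT and 83.3% in MAEL KO. The other CCN genes were nearly silent. WISP3 had 12 and 8 counts, WISP1 had 1 count in each library, WISP2 had 1 and 0, and NOV had 0 in both.

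ANKRD1 encodes a nuclear ankyrin-repeat protein of muscle and a sensitive YAP target in other cells. ANKRD1 (ENSG00000148677) spans 90912096 to 90921276 of chromosome 10 (minus strand). It had 55 counts in MAEL WT, or 1.27 FPKM (0.957 to 1.65), and 0 counts in MAEL KO, where 3 counts would correspond to 0.080 FPKM. Against that floor, and leaving counting error aside, its level in MAEL KO was lower by at least 15.8-fold. With counting error, the limit of its interval nearest to 0 was a log2 ratio of -3.64. Only 0.07% of all tested genes had a lower fitted log2 ratio. Per length ANKRD1 was lowest of the 10 genes in both libraries, though in MAEL WT its interval overlapped that of WWTR1. The difference rests on 55 counts in 1 library.

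**Figure D2:**
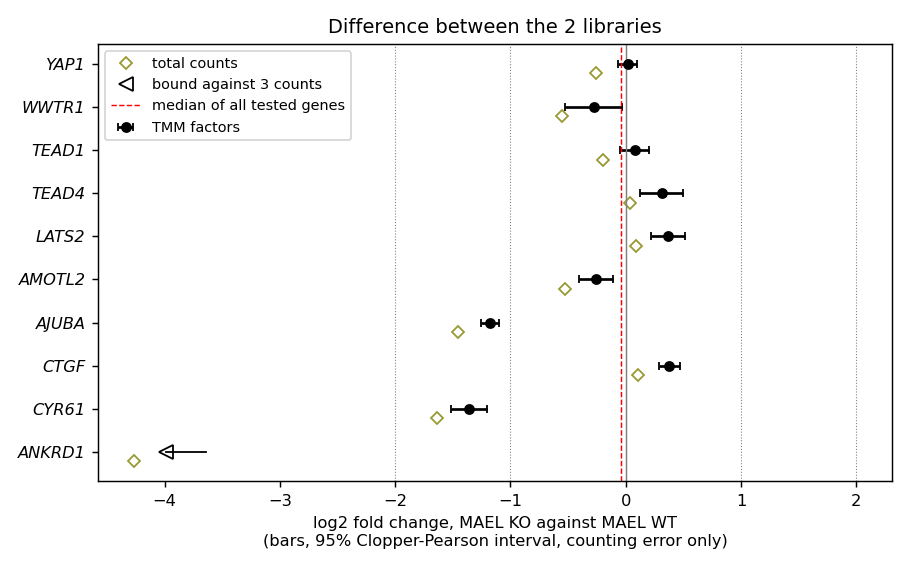
Log2 ratio of MAEL KO to MAEL WT for each of the 10 genes, with TMM factors (filled points, exact 95% Clopper-Pearson intervals) and with total counts (open diamonds); for ANKRD1 both symbols are bounds against 3 counts and the line ends at the limit of the interval. AJUBA at -1.18, CYR61 at -1.36 and ANKRD1 lie beyond -1 under both scalings, and the remaining 7 genes lie within 0.4 of 0 with TMM factors.

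The letters GGAATG, the core of the site that TEAD proteins bind, were looked for on both strands in the 250 bases before the start of each gene, because several of the 10 genes are known as targets of TEAD and YAP. RefSeq promoter sequences of GRCh38.p14 were matched for 7 of the 10 genes, in 10 windows, since some genes have more than 1 start. CYR61, TEAD1 and TEAD4 had no matched sequence and were not searched. At least 1 match was found in 5 of the 10 windows, 1 each for YAP1, CTGF, ANKRD1, AMOTL2 and AJUBA, and for AMOTL2 and AJUBA only in the window of a second start. Of 35116 windows of the same length over all genes, 11.9% held a match. CTGF had 3 matches, and 29 of all windows (0.08%) had 3 or more. ANKRD1 had 2 matches, and 0.94% of all windows had 2 or more. The stretch before CTGF, chr6:131951374-131951622 on the minus strand, is shown with the matches in capitals because all 3 lie within it.
CTGF: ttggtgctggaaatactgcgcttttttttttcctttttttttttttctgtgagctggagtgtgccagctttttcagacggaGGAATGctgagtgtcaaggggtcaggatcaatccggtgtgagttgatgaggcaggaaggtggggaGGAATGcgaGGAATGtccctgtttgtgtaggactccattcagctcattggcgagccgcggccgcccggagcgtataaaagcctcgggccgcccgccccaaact

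The 3 matches of CTGF begin 169, 104 and 95 bases before the start. Those of the other genes are shown in windows of 30 bases, to compare the letters around the core, with the match in capitals. They lie at chr10:90921290-90921319 and chr10:90921198-90921227 on the minus strand for ANKRD1, at chr11:102110273-102110302 on the plus strand for YAP1, at chr3:134374499-134374528 on the minus strand for AMOTL2 and at chr14:22976884-22976913 on the minus strand for AJUBA.
ANKRD1, 220 bases before the start: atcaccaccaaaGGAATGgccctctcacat
ANKRD1, 128 bases before the start: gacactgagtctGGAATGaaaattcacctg
YAP1, 162 bases before the start: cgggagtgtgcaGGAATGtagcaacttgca
AMOTL2, 69 bases before its second start: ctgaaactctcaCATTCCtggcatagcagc
AJUBA, 59 bases before its second start: gggaagttggctGGAATGaagccaaagcaa

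In AMOTL2 the letters are the reverse complement. The windows of the second ANKRD1 match and of the AMOTL2 and AJUBA matches overlap GENCODE exons. The second starts of AMOTL2 and AJUBA lie inside the spans of these genes, and the searched AJUBA stretch has 0 bases before an exon. The AP-1 core TGANTCA, whose sites often lie beside TEAD sites, was found in 1 of the 7 genes and in 6.57% of all windows. That gene was ANKRD1, with the match 195 bases before its start. The window around this match also overlaps a GENCODE exon. The CArG box of serum response factor was found before none of the 7 genes and in 1.16% of all windows. A match shows that the letters are present, and binding was not measured. Genes with matches stood both among those lower by more than 1 (ANKRD1, AJUBA) and among the rest (YAP1, CTGF, AMOTL2). CYR61, also lower by more than 1, was not searched.

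A wider signature of 22 YAP and TAZ target genes, which includes 5 of the 10 genes, was uneven in the same way. Of its 21 tested genes, 7 were lower by more than 1 on the log2 scale, none was higher by more than 1 and 14 lay between, where 16.5% of all tested genes were lower and 10.2% higher by as much. The median was -0.38, and it was -0.44 for the 16 tested genes that are not among the 10. At a log2 ratio of 2, TGFB2 and ANKRD1 were lower. TGFB2, a secreted ligand of the TGF-beta family, had 60 counts in MAEL WT and 11 in MAEL KO, a log2 ratio of -2.15 (95% interval -3.31 to -1.30). Besides these and CYR61, the genes lower by more than 1 were NT5E, MYOF, FJX1 and GADD45A. NT5E, the cell-surface enzyme CD73, had 1477 and 339 counts and a log2 ratio of -1.91 (95% interval -2.09 to -1.74). MYOF, which encodes the membrane-repair protein myoferlin, had 2391 and 706 counts and a log2 ratio of -1.55. FJX1 had 109 and 37 counts, and GADD45A, a stress gene that halts the cell cycle, had 2394 and 883. On the other side CRIM1, at 0.66, and F3, the gene of tissue factor, at 0.59, were highest. IGFBP3 had 3323 and 3189 counts, a log2 ratio of 0.15. The signature held lower genes at both high and low levels, from GADD45A at 52.9 FPKM in MAEL WT to TGFB2 at 0.533 FPKM.

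Among 12 genes known to respond to YAP in liver, differences ran both ways. Of the 11 tested, 2 were higher and 3 lower at a log2 ratio of 2, against 2.16% and 5.64% of all tested genes. The median was 0.17, or -0.10 with total counts. GPC3, an oncofetal proteoglycan of liver cancer, had 3196 counts in MAEL WT and 21285 in MAEL KO, 7.70-fold more. BIRC5, the mitotic protein survivin, had 669 and 2341 counts, a log2 ratio of 2.02 (95% interval 1.89 to 2.14), and 1 gene of the list was above 2 with total counts. AREG, an EGF receptor ligand, was at 326 FPKM in MAEL WT and 49.1 FPKM in MAEL KO. The biliary keratin KRT7 had 60 counts in MAEL WT and 1 in MAEL KO, a log2 ratio of the normalized counts of -5.70 (95% interval -11.02 to -3.16). KRT19 had 13 and 1 counts, and its wide interval (-8.90 to -0.76) included -2. SOX9, a biliary and progenitor factor, had 161 and 73 counts with a log2 ratio of -0.92 (95% interval -1.35 to -0.52).

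Upstream of YAP, differences ran in both directions among the core kinases and scaffolds and among other regulators. None of the 19 core kinases and scaffolds was past 1 (1 was lower by more than 1 with total counts), where 26.7% of all tested genes were. With TMM factors 14 of them were above 0 and 5 below. Their median was 0.18, or -0.10 with total counts. STK4 had 2341 and 2226 counts, SAV1 had 622 and 673, and MOB1A, at 23.7 and 26.8 FPKM, was the most abundant of the list. The lowest was MAP4K1 with 54 and 25 counts and the highest TNIK with 1322 and 1762 counts, a log2 ratio of 0.62. Of 29 tested upstream regulators, 3 were higher and 5 lower by more than 1, shares near the 10.2% and 16.5% of all tested genes. Their median was 0.09, or -0.18 with total counts. FRMD1 was the only one past 2, with 1 count in MAEL WT and 11 in MAEL KO, a log2 ratio of the normalized counts of 3.67 (95% interval 0.89 to 9.10). The scaffold WWC2 had 622 and 234 counts, a log2 ratio of -1.20 (95% interval -1.42 to -0.98), whereas its paralog WWC1 (KIBRA) had 1893 and 2609 counts, 0.67. RASSF2, RASSF4 and RASSF6, adaptor genes of the RAS-association domain family, were each lower by more than 1. NF2 (merlin) had 745 and 843 counts and CDH1 (E-cadherin) 1400 and 1840 counts, log2 ratios of 0.39 and 0.60.

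Of the 14 genes of the STRIPAK phosphatase complex, which removes phosphate from MST1 and MST2, 1 was past 1 on the log2 scale. Of all tested genes, 26.7% were past 1 in either direction. The 1 STRIPAK gene was PPP2R1B, a scaffold subunit of protein phosphatase 2A. It had 3184 counts in MAEL WT and 7893 in MAEL KO, a log2 ratio of 1.52 (95% interval 1.46 to 1.58). The median of the complex was 0.06, or -0.22 with total counts. Of 11 genes for the cytoplasmic retention and turnover of YAP, 1 was above 1, where 10.2% of all tested genes were. Their median was 0.36, or 0.08 with total counts. The 14-3-3 genes, whose proteins bind phosphorylated YAP, held the highest values. YWHAH had 996 and 2094 counts (log2 ratio 1.28), YWHAQ 4402 and 7517 (0.98) and YWHAZ 11742 and 17642 (0.80). BTRC, a ubiquitin ligase subunit that takes part in the degradation of YAP, had 1336 and 794 counts (-0.54). VGLL4, which competes with YAP for TEAD, had 723 and 682 counts (0.13), VGLL1 and VGLL3 had 0 counts in both libraries, and VGLL2 had 14 and 3, a log2 ratio of the normalized counts of -2.01 (95% interval -4.45 to -0.17).

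Because CTGF and CYR61 also respond to serum response factor and its actin-regulated co-activators, genes of that route were set beside them. Of 17 tested genes, 2 were higher and 2 lower by more than 1 (10.2% and 16.5% of all tested genes). Their median was 0.20, or -0.07 with total counts. The cytoplasmic actin genes were the higher ones, ACTB with 20126 and 48276 counts (log2 ratio 1.47) and ACTG1 with 16992 and 46953 (1.68). FLNA, which encodes the actin cross-linker filamin A, had 22276 and 7456 counts (-1.37), and FHL1, a LIM-domain protein, had 114 and 14 (-2.74, 95% interval -3.73 to -2.01). SRF had 2332 and 2324 counts, and its log2 ratio was 0.21.

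**Figure D3:**
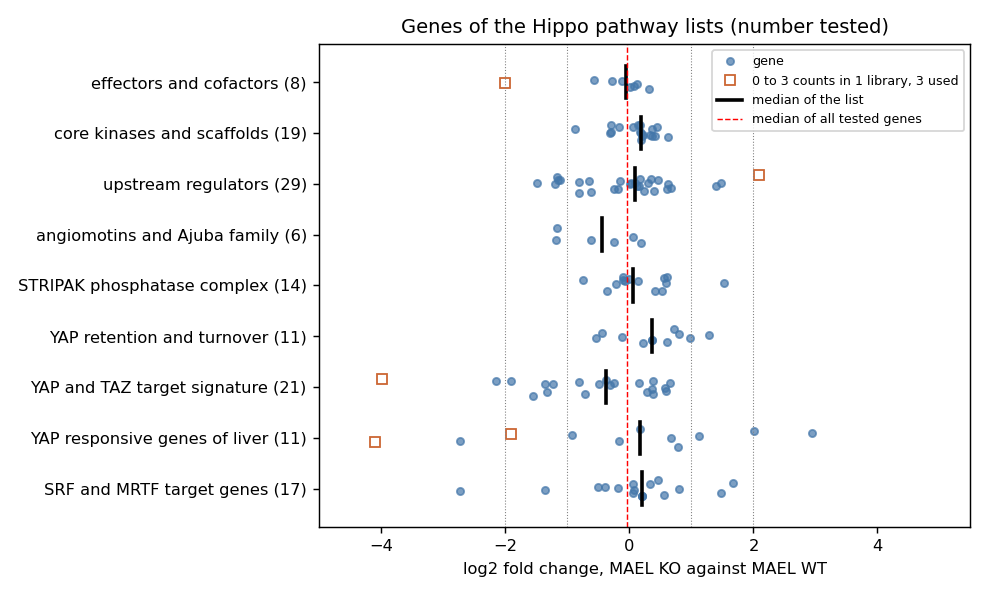
Log2 ratio of MAEL KO to MAEL WT for each tested gene of 9 lists (circles), the median of each list (black bars) and that of all tested genes (dashed red line); squares are genes with at most 3 counts in 1 library, drawn with 3 counts in that library, and lists share some genes. The 19 core kinases and scaffolds all lie within 1 of 0 with these TMM factors, and the target signature has 7 genes below -1 and none above 1.

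Among the paralogs, the families differed in which genes carried the level. YAP1, CTGF, AMOTL2 and AJUBA each made up over 60% of the summed level of its family in both libraries, whereas no TEAD gene reached 33%.

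**Figure D4:**
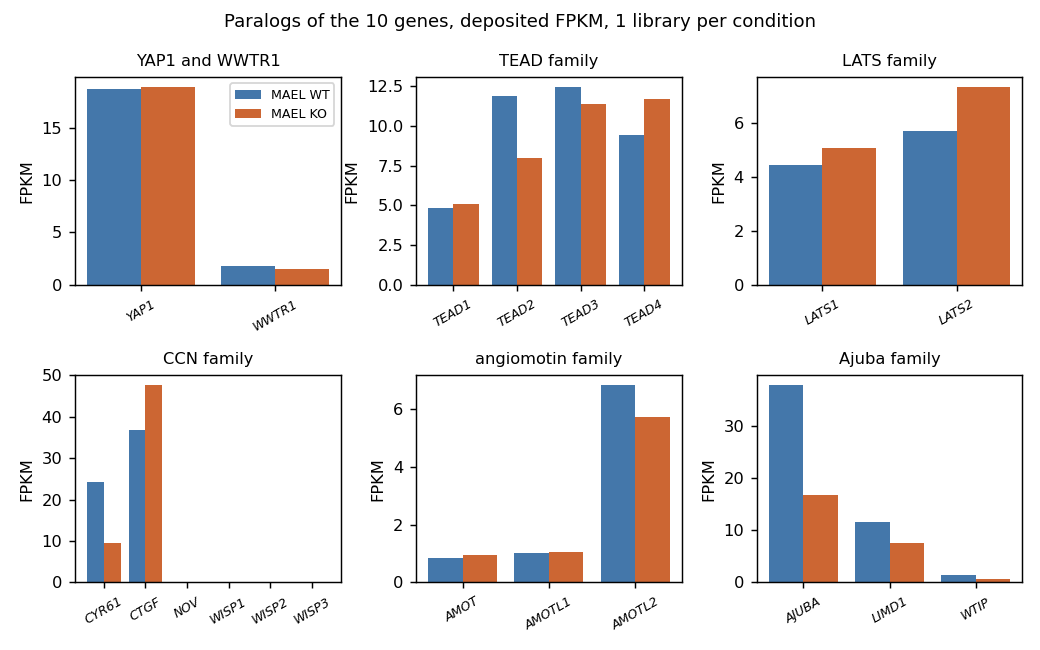
Deposited FPKM of the paralogs of the 10 genes in MAEL WT (blue) and MAEL KO (orange), 1 library per condition and no error bars, with separate axes for each family. CYR61 at 24.2 and 9.41 FPKM and CTGF at 36.8 and 47.7 FPKM differ in opposite directions, and all 3 Ajuba family genes are lower in MAEL KO.

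Since the knockout line is a clone, each gene was set beside the 5 nearest tested genes on each side. The 10 neighbours of AJUBA, all within 0.075 Mb, had log2 ratios from -0.78 to 0.50 with a median of 0.26, so AJUBA at -1.18 lay below every one of them. ANKRD1 at its bound of -3.99 likewise lay below all its neighbours, the lowest of which was at -1.66. CYR61 had neighbours from -3.41 to 1.86 with a median of -0.27, and 2 of them were lower than CYR61, COL24A1 with 133 and 12 counts and the non-coding AC092807.3 with 37 and 3. For YAP1, the 10 neighbours had a median of -0.58, and CFAP300, with 97 and 19 counts, was the only one past 2. LATS2 at 0.36 lay within its neighbours, whose median was 0.50. CTGF had neighbours on both sides of it, from VNN1 with 33 and 5 counts to ENPP3 with 10 and 68, with a median of -0.35. DKK3, a neighbour of TEAD1, had 713 and 152 counts. Medians of whole chromosomes carrying the 10 genes lay between -0.09 and 0.08.

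**Figure D5:**
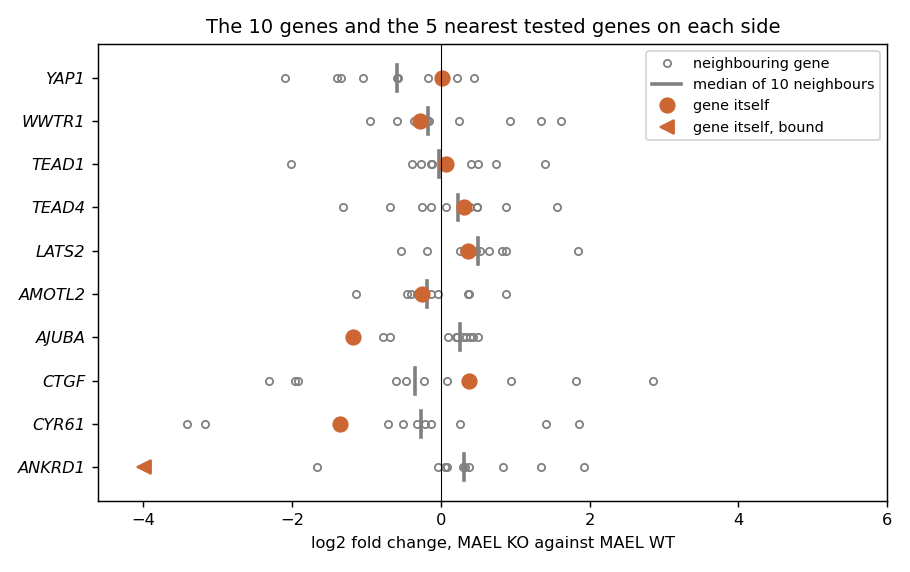
Log2 ratio of MAEL KO to MAEL WT for each of the 10 genes (orange) and for the 5 nearest tested genes on each side (open circles), with the median of the 10 neighbours (grey bars); genes with at most 3 counts in 1 library are drawn with 3 counts in that library. AJUBA and ANKRD1 lie below all of their neighbours, while CYR61 lies above 2 of its own.

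Annotated genes that overlap a member had few counts, which does not show how many reads of the shared bases were left uncounted. Whether reads were counted by strand is not stated in the sources used here, and a gene and its antisense partner cannot then be told apart. Opposite-strand genes that share exon bases with a member had 0 counts in both libraries for YAP1, 11 and 6 for WWTR1-AS1 and 6 and 4 for AL133346.1, which overlaps CTGF by 195 bases. The pseudogenes YAP1P1 and YAP1P2 had 1 and 0 counts in MAEL WT and none in MAEL KO.

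All 10 hepatocyte markers were detected, and their summed level was higher in MAEL KO. It was 1648 FPKM in MAEL WT and 4885 FPKM in MAEL KO, and ALB, the gene of albumin, had 59 and 8550 counts. Their part in the differences of the 10 genes was not tested. Markers of non-parenchymal cells were low in both libraries. Of 9 fibroblast and stellate cell markers, 3 had at least 10 counts. COL1A1 had 92 and 11 counts and PDGFRB 122 and 29, whereas COL3A1 had 54 and 136. The summed level of the 9 markers was 1.67 and 1.33 FPKM, and PDGFRA and ACTA2 had 0 counts in both libraries. Endothelial markers summed to 2.09 and 2.81 FPKM, nearly all from PECAM1, and leukocyte markers to 0.848 and 0.319 FPKM. The epithelial genes KRT8 and KRT18 were abundant, at 81.4 and 128 FPKM in MAEL WT and 179 and 169 FPKM in MAEL KO. CDH1 was also higher in MAEL KO, whereas EPCAM had 15 and 0 counts and KRT19 13 and 1. Summed over these 5 epithelial markers, the level was 220 FPKM in MAEL WT and 364 FPKM in MAEL KO.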

How the data were processed

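Total RNA gave 1 HiSeq library for MAEL WT cells and 1 for MAEL KO cells. The authors deposited raw read counts per gene and FPKM values. The submitters' processing notes list HISAT2 2.0.5, featureCounts 1.5.0-p3 and hg19, but the coordinates of all 58735 genes equal those of GENCODE 29 on GRCh38. The deposited FPKM use library sizes of 1.0989 and 0.91 times the total counts.

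Counts were scaled with TMM factors (1.10 and 0.909) in edgeR 4.0.16. DESeq2 1.42.0 gave the other size factors, under R 4.3.3. Fold changes and intervals were computed in Python 3.11.15 with SciPy 1.17.1. They were tested on simulated data that held counting error only, so that test does not cover variation between cultures. Genes with at least 10 counts in a library were tested, and a gene at 0 counts in a library was given as a bound against 3 counts in that library. Genes with 1 to 3 counts were given by the ratio of normalized counts with nothing added, and were counted against the thresholds, like the others, with 1 added. The log2 threshold of 2 is that of the methods, and 1 was added as a second. No p-value is given, since 1 library per condition leaves no replicate error. Alternatives were other scalings, added counts, count filters, FPKM ratios and subtraction of chromosome or neighbour medians. Members and lists were chosen with earlier results of these data known. The genes named are the 10 members, their paralogs, the targeted gene, the extremes of each list, and neighbours past 2; other list genes, AC092807.3 and marker genes were named after their values were seen, as were the ratios between paralogs.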

Additional observations from a re-analysis of the deposited data

How the results depend on the processing

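No paired analysis was possible because each condition has 1 library, and for the same reason no library could be left out. Of 76 values of the 10 genes under alternatives, 60 moved by less than the counting interval and 16 by more, and 3 changed sign. ANKRD1, given as a bound, was not run with other added counts or FPKM ratios. CYR61 and AJUBA were lower by more than 1 under each setting run. With total counts the log2 ratios were -0.26 for YAP1, -0.55 for WWTR1, -0.20 for TEAD1, 0.035 for TEAD4, 0.089 for LATS2, 0.10 for CTGF, -1.63 for CYR61, -0.53 for AMOTL2 and -1.45 for AJUBA. With the median of the 10 nearest tested genes subtracted they were 0.60 for YAP1, 0.073 for TEAD4, -0.13 for LATS2, 0.73 for CTGF, -1.09 for CYR61, -0.075 for AMOTL2 and -1.44 for AJUBA. Counts per kilobase over total counts, in place of the deposited FPKM, gave in MAEL WT and MAEL KO 20.6 and 17.2 for YAP1, 5.33 and 4.64 for TEAD1, 10.4 and 10.6 for TEAD4, 6.29 and 6.69 for LATS2, 40.5 and 43.4 for CTGF, 7.52 and 5.21 for AMOTL2, and 41.7 and 15.2 for AJUBA, and 26.6 for CYR61 in MAEL WT.

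Over all genes, the median was -0.31 with total counts, -0.075 with no count filter, 0.087 with a mean of at least 100 counts and 0.017 for protein-coding genes. Genes higher by more than 1 numbered 1174 with total counts. With no filter 1029 genes were higher and 1773 lower past 2, and 5304 and 5745 past 1. With a mean of at least 100 counts these were 160, 200, 1039 and 895. Genes lower past 2 numbered 551 by FPKM with 0.1 added and 513 with 5 counts added, where 250 were higher. Of protein-coding genes 1853 were lower past 1.

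For the lists, a mean of at least 100 counts left 0 of the 10 genes lower past 2, 0 effectors and cofactors lower past 1, 0 upstream regulators higher past 2 or past 1 and 2 lower past 1, 0 signature genes lower past 2 and 4 past 1, 1 liver gene lower past 2 and 1 past 1, and 0 serum response factor targets lower past 2 and 1 past 1. By construction this filter removes genes of low count such as ANKRD1. With total counts 1 core kinase and 1 STRIPAK gene were lower past 1, the STRIPAK median was -0.22, and 1 liver gene was higher past 2. By FPKM with 0.1 added, 0 upstream regulators were higher past 2 and 3 lower past 1, 1 signature gene was lower past 2 and 1 liver gene higher past 2. With 5 counts added, 0 upstream regulators were higher past 2 and 1 signature gene was lower past 2, and with no filter 2 upstream regulators were higher past 2. DESeq2 size factors moved none of these values beyond its limits. With 1 library per condition, variation between cultures is unknown, and genes near 3 counts are limited by depth.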
